A study of Homo sapiens with 9 samples.

Results

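Ewing sarcoma cells recovered from lung metastases were compared with cells recovered from the primary tumour. The comparison took 5 of the 9 libraries of the series, the 4 labelled lung metastasis and the 1 labelled primary tumor, and 34922 of the 34934 rows of the deposited table. The other 12 rows are reporter and drug-selection genes of vectors and were left out. After a filter on low counts 17073 genes were measured. Each library came from TC71, an established human line of this cancer, carried in NSG mice, a strain that lacks B, T and NK cells. For all groups the inoculum was 100 cells suspended in Matrigel and given subcutaneously in the flank. Once the tumour measured 1.5 cm in diameter, flow cytometry recovered tumour cells from the flank mass, the lung and the bone marrow. Lung and primary groups therefore share the cell line, the host and the route of injection and differ in the organ from which cells were sorted. The labels give replicate numbers to the lung libraries, and not the mouse that each library came from or whether any mouse gave both a lung and the primary library. With 1 primary library, a difference between the groups is a difference from that library, and tests use the spread between lung and bone marrow libraries, which may be partly technical.

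Ewing sarcoma is a cancer of bone and soft tissue in children and young adults, driven in most cases by a fusion of EWSR1 with FLI1, an ETS transcription factor. It spreads most often to lung, bone and bone marrow. Programmes often examined between primary tumours and metastases include the response to low oxygen, glycolysis, mitochondrial respiration, the cell cycle and the handling of misfolded proteins in the endoplasmic reticulum (ER).

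Estimated counts summed to 12352474 in the primary library and to between 11549807 and 13218789 in the lung libraries. Of the measured genes, 7.88% had no count in the primary library, against 12.2 ± 1.91% in lung libraries (SD, n = 4). Lung replicate 3 stood apart: its correlations with the other 4 libraries, on log2 values over all measured genes, were 0.854 to 0.869, where the remaining pairs had 0.881 to 0.899. Results are therefore also given without it where it decides them. The primary library correlated with lung replicates 1 to 4 at 0.897, 0.899, 0.854 and 0.881. Pairs of lung libraries were at 0.862 to 0.895, so these values overlapped. All pairs differed by far more than counting error, with a chi-square of 81.4 to 171 for each degree of freedom, so no library was a second deposit of another. Some markers of the line were high in all 5 libraries: STEAP1, a target of the fusion, was at 905 CPM in the primary library and 894 to 1051 CPM in lung, and CD99, the surface protein used in diagnosis, at 606 CPM and 302 to 779 CPM. LIPI, another Ewing sarcoma marker, was uneven, at 68.7 CPM in the primary library and 35.2, 0.0703, 216.4 and 0.436 CPM in lung. CPM, the count per unit of library depth in general use, was scaled between libraries by the trimmed mean of M-values (TMM). The row for FLI1 held at most 0.307 CPM in any of the 5 libraries, so the fusion transcript itself was not followed. The row for EWSR1 was at 351 CPM in the primary library and 131, 158, 81.9 and 168 CPM in lung. It thus lay above all lung libraries. Among defining genes of lung epithelium, SCGB1A1 was 0 in all 5 libraries, and SFTPC was 0 in the primary library and at most 0.745 CPM in lung. NKX2-1, a transcription factor of that epithelium, was at 9.36 CPM in the primary library and 10.9, 11.5, 13.2 and 12.6 CPM in lung. Of the 10 such markers that were measured, 4 were lower and 1 was higher in the primary library than in all lung libraries. These were 40% and 10%, beside 17.9% and 21.7% of all genes. The 18 lung epithelial markers summed to 66.9 CPM in the primary library and 42.3 to 144 CPM in lung, with the highest sum in lung replicate 2, where EPCAM was at 115 CPM. The rows are human genes, so RNA of the mouse host is seen in them only as far as its reads were assigned to human genes; the deposited table gives 7.45% mouse reads for the primary library and 7% to 8.09% for lung. The same replicate held 130.4 CPM of the globin gene HBA1, and lung replicate 1 held 14.3 CPM of the leukocyte gene PTPRC. In bulk RNA of this kind, fewer cells of a type and less RNA per cell cannot be told apart.

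The primary library lay above all 4 lung libraries for 3703 of 17073 genes, or 21.7%, and below all 4 for 3061, or 17.9%. Together 39.6% of genes lay outside the lung range, so such a position alone does not mark out a gene. With 5 interchangeable libraries, each would be highest for about 1 in 5 genes and lowest for as many. Both shares were close to that. A stricter count asked that the primary library be at least 2-fold beyond the nearest lung library after 1 CPM was added to every value. That held for 893 genes above the lung libraries (5.23%) and 310 below them (1.82%). Leaving out lung replicate 1, 2, 3 or 4 raised the second count to 474, 445, 474 and 466. A range over fewer libraries is easier to fall outside. Of the 893, 598 had a mean under 5 CPM over the 5 libraries. Among the 5435 genes with a mean of at least 20 CPM the strict count was 134 above (2.47%) and 161 below (2.96%). These counts were 244 and 221 without lung replicate 1, 207 and 209 without lung replicate 2, and 151 and 143 with scaling by library size alone, so which side held more genes depended on the setting. At that expression level the genes just inside the limit were QPCT, INTS4 and EZR above (2.00-fold to 2.01-fold) and C20orf24, DAD1 and NAA30 below (2.00-fold to 2.01-fold). Those just outside were TTC27, BRD2 and GSPT2 above (1.99-fold) and JUNB, NR2C2AP and NDUFB1 below (1.97-fold to 1.98-fold). Differences are written below as lung minus primary on the log2(CPM + 1) scale, so a positive value is higher in lung. The median over all measured genes was 0.098.

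Whether single genes passed a test across all genes depended on the tool. A permutation of 4 against 1 libraries cannot give an exact p below 0.05, and gives at least 0.4 where the p of 1 side is doubled. In edgeR's quasi-likelihood test, which takes the spread from the lung and bone marrow libraries and assumes that the primary library varies as they do, 0 of 17073 genes (0%) had a Benjamini-Hochberg adjusted p below 0.05. The smallest adjusted p was 0.251, and 1100 genes had an unadjusted p below 0.05, 397 higher in lung and 703 higher in the primary library. DESeq2 called 131 genes (0.945%), 87 higher in lung and 44 higher in the primary library. Limma voom with quality weights called 4 (0.0234%), all higher in the primary library: HSPA5, TEKT2, PDE8A and LRRC70, of which the last 3 are named here after their values were seen. The words higher and lower below describe measured levels in these libraries.

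**Figure D1:**
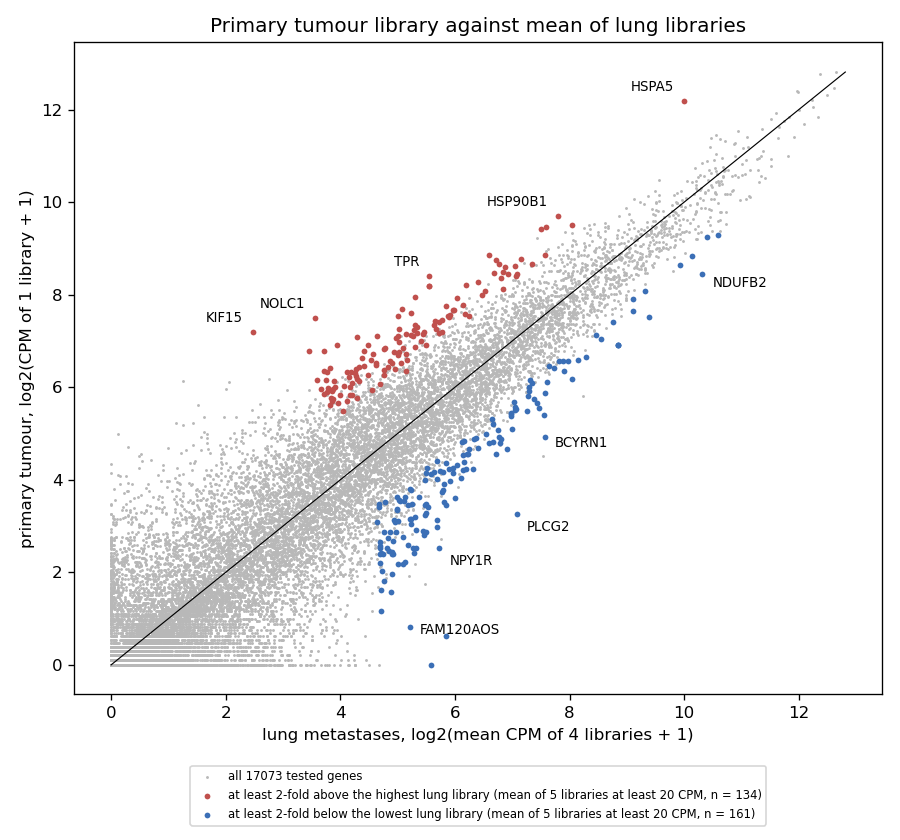
Each point is a gene, with the mean of the 4 lung libraries on the x axis and the primary library on the y axis, both as log2(CPM + 1); the line marks equal values. Among genes with a mean of at least 20 CPM, 134 (red) were at least 2-fold above the highest lung library. At the same mean 161 (blue) were at least 2-fold below the lowest. Both counts rose with any 1 lung library left out, to 244 and 221 without lung replicate 1.

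The position of the primary library varied with 2 features of the transcripts. Genes with a mean of at least 5 CPM were put into 5 groups of equal size by transcript length. In the group of shortest transcripts the primary library lay above all lung libraries for 10.2% of genes and below them for 38.6%. In the group of longest transcripts the shares were 32.1% and 11.6%. Short messages were thus more often low, and long messages more often high, in the primary library. By GC content the shares above and below were 29.2% and 13.6% in the lowest group and 12% and 29.8% in the highest. Genes at least 2-fold above the lung libraries had a median transcript length of 3932.5 bases (n = 288) and those at least 2-fold below 1667.5 bases (n = 229), against 2426.25 bases for all genes of that expression (n = 8428). All 4 lung libraries showed the direction by length, with library medians of 0.25 to 0.50 for the shortest group and -0.54 to -0.29 for the longest, furthest from 0 in lung replicate 3. The 4 bone marrow libraries showed it as well, with medians of 0.09 to 0.37 and -0.48 to -0.14, so it was not particular to lung. An offset for transcript length and GC content, fitted in each library and chosen after these values were seen, is given beside the results below as an adjusted value. It brought the medians of the shortest and longest groups to -0.04 and 0.11. With it the primary library lay above all lung libraries for 25.3% and below them for 18.3% of the genes that have both features, with a median difference of 0.03.

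**Figure D2:**
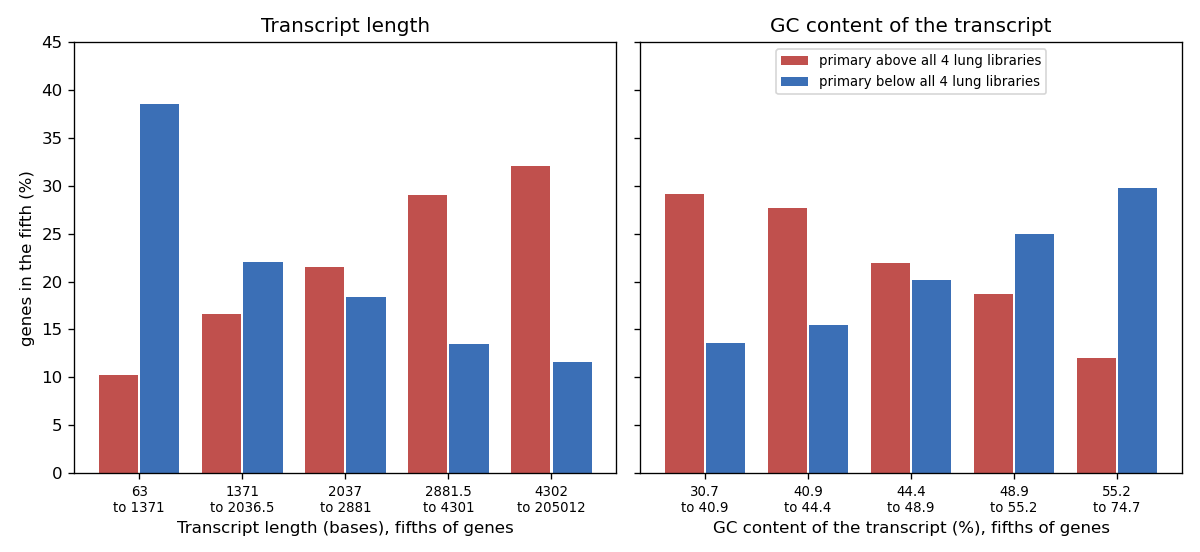
Share of genes (y axis, %) for which the primary library lay above (red) or below (blue) all 4 lung libraries, in 5 groups of equal size ordered by transcript length in bases (left) and by GC content in percent (right), for genes with a mean of at least 5 CPM. The share above runs from 10.2% to 32.1% with length and from 29.2% down to 12% with GC content.

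HSPA5 and HSP90B1, which encode chaperones of the ER, were at least 3.12-fold above every lung library, and HSPA5 was among the genes with the smallest adjusted p in edgeR. HSPA5, which encodes the main Hsp70 chaperone of the ER and is the classic marker of the unfolded protein response (chromosome 9, 125234853 to 125241330, minus strand, hg38), was at 4659 CPM in the primary library. In lung replicates 1 to 4 it was at 1338, 880.2, 720.4 and 1148 CPM (1021 ± 275, SD, n = 4). The primary value was 3.48-fold above the highest lung library, and no lung library came near it. The edgeR log2 difference was -2.19 ± 0.28 (SE, adjusted p = 0.251), and the gene passed in DESeq2 (adjusted p = 0.000126) and limma voom (adjusted p = 0.0402). HSP90B1, the Hsp90 of the ER lumen (chromosome 12, 103930107 to 103953645, plus strand), was at 834 CPM against 201, 211, 209 and 267 CPM. Its lung libraries, of which replicate 4 was the highest, were all 3.12-fold or more below the primary library (edgeR log2 difference -1.91 ± 0.35, adjusted p = 0.448; DESeq2 adjusted p = 0.009). With the offset for length and GC the log2 differences were -1.92 for HSPA5 and -2.06 for HSP90B1.

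Transcription of these chaperones is driven in part through the ER stress response element, a paired motif in which CCAAT and CCACG are separated by 9 bases of any kind and which is bound by NF-Y together with ATF6. The 250 bases before the RefSeq start (GRCh38.p14) were searched on both strands for exactly these letters. It was found in 26 of 35116 promoters (0.074%), in 17 of the 11096 promoters of measured genes (0.153%) and in 6 of 21 promoters of the ER list (28.6%). The ER list holds chaperones known to be driven through this element, and these counts use no value of the libraries. The 4 sequences below are shown because HSPA5 and HSP90B1 lay far above the lung libraries, while CALR and XBP1 hold the same motif and lay within the lung range; of the other 2 genes with it, CANX lay above and CRELD2 within. The motif is in capitals, the sequences run 5′ to 3′ on the gene's strand, and a match describes the letters only.
HSPA5 (chr9:125241344-125241593, minus strand): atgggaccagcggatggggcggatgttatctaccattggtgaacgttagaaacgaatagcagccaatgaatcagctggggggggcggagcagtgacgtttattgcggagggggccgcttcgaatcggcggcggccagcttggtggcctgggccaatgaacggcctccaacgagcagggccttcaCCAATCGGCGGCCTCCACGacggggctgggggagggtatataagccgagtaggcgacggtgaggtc
HSP90B1 (chr12:103930160-103930409, plus strand): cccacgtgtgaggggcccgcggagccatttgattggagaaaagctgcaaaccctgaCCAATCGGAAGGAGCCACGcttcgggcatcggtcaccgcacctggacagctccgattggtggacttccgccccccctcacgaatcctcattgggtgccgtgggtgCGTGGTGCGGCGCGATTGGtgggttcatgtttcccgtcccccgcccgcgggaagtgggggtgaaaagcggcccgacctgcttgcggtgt
CALR (chr19:12938359-12938608, plus strand): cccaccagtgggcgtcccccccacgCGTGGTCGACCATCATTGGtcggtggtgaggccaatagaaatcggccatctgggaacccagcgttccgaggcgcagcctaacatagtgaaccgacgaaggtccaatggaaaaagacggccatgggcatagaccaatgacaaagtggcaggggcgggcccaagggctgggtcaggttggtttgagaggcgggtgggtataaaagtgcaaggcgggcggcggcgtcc
XBP1 (chr22:28800570-28800819, minus strand): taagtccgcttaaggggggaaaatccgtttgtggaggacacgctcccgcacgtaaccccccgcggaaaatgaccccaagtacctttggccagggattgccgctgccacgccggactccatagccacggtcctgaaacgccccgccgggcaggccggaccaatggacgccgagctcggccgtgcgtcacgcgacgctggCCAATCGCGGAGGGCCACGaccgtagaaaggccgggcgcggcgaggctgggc
The motif begins 66 bases before the start in HSPA5, 52 in XBP1, 225 in CALR, and 194 and 89 in HSP90B1. CALR, which encodes the calcium-binding chaperone calreticulin, was at 76.9 CPM in the primary library and 46.7, 57.5, 90.5 and 88.7 CPM in lung. XBP1, whose spliced message encodes a transcription factor of the unfolded protein response, was at 104 CPM against 145, 169, 83.0 and 177 CPM. Both genes overlapped between the groups, so the presence of the element did not go with a high primary value in every case.

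Of the 22 measured genes of the ER list, 8 lay above and 1 below all lung libraries (36.4% and 4.55%, beside 21.7% and 17.9% of all genes), and 2 were at least 2-fold above. The median difference was -0.33, and -0.31 to -0.41 in the 4 lung libraries taken singly, where the median over all genes was -0.02 to 0. With the offset it was -0.43. ATF6, the membrane-bound transcription factor that is cut and released on ER stress, was at 146 CPM in the primary library and 83.2, 63.4, 52.1 and 82.0 CPM in lung. HERPUD1, a component of ER-associated degradation, was at 609 CPM against 502, 372, 174 and 434 CPM, nearest to replicate 1 and farthest from replicate 3. PDIA4, a disulfide isomerase, was at 187 CPM against 121 to 154 CPM. SEC61B, a subunit of the protein-conducting channel of the ER, was the member on the other side, at 181 CPM in the primary library and 296, 349.8, 500.5 and 277 CPM in lung. ATF4 is the transcription factor of an arm of the stress response that also responds to amino acid shortage. Of its 14 measured targets, 4 lay above the lung libraries and 0 below (28.6% and 0%). Their median difference was -0.14, and from -0.58 to 0.23 in single lung libraries, so its sign depended on the library. DDIT3, which encodes the pro-apoptotic factor CHOP, was at 725 CPM against 325, 193, 179 and 348 CPM. SLC3A2, the heavy chain of amino acid transporters, was at 197 CPM against 73.5 to 132 CPM. In bone marrow libraries HSPA5 was at 1824 to 2294 CPM and HSP90B1 at 253 to 532 CPM; for HSPA5 every bone marrow library lay between the lung range and the primary library.

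Hypoxia targets were mostly higher in the primary library. Of 24 measured, 10 lay above and 2 below all lung libraries (41.7% and 8.33%), 6 of them at least 2-fold above. The median difference was -0.30, and -0.56 with the offset. It ranged from -0.72 without lung replicate 1 to -0.19 without lung replicate 2. In the lung libraries taken singly the median was -0.99 to -0.37, in each case lower than the value on their mean. PDK1, the kinase that diverts pyruvate from mitochondria, was at 132 CPM in the primary library and 31.2, 33.8, 16.6 and 40.5 CPM in lung. BNIP3, a mitophagy receptor induced by low oxygen, was at 429 CPM against 149, 42.3, 114 and 109.6 CPM. Both were at least 2.87-fold above the nearest lung library. Their edgeR log2 differences were -2.11 ± 0.54 and -2.05 ± 0.53 (SE), with adjusted p values of 0.571 and 0.58. BNIP3L, a related receptor, was at 313 CPM against 95.1 to 216.3 CPM, and P4HA1, a collagen prolyl hydroxylase subunit, at 202 CPM against 79.7 to 144 CPM. SLC2A3, which encodes the glucose transporter GLUT3, was at 80.8 CPM in the primary library and at 15.2, 32.6, 0 and 0.509 CPM in lung, so its lung libraries differed widely among themselves. HILPDA, a lipid droplet protein also induced by hypoxia, went the other way, at 24.5 CPM against 61.0, 63.6, 124 and 51.3 CPM. VEGFA, within the lung range, was at 8.59 CPM in the primary library and between 0.414 and 17.3 CPM in lung, and the hypoxia marker CA9 was at 0 in all 5 libraries. The list thus held members on both sides and members with no separation.

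Glycolytic enzymes gave the same picture with smaller distances. Of 16 measured, 9 lay above the lung libraries and 1 below (56.2% and 6.25%), with a median difference of -0.44 and of -0.42 with the offset. PFKP, the platelet isoform of phosphofructokinase, was at 93.1 CPM in the primary library and 41.7, 38.8, 17.6 and 15.3 CPM in lung. GPI, which interconverts glucose and fructose phosphates, was at 257 CPM against 77.2 to 159 CPM. PKM, which encodes the pyruvate kinase of proliferating cells and muscle, was at 502 CPM against 327, 178, 294 and 194 CPM. ALDOA, the aldolase of most tissues, was at 832 CPM against 460.0, 553, 403 and 446 CPM. LDHA, lactate dehydrogenase A, did not follow: it was at 1288 CPM in the primary library and 1244 to 1748 CPM in lung, with overlap. No member passed in edgeR (smallest adjusted p 0.747). Bone marrow libraries held 587 to 1033 CPM of PKM and 323 to 387 CPM of BNIP3L, values above the primary library, while lung libraries were below it.

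Cell cycle genes lay on both sides of the lung libraries. Of 31 mitosis and spindle genes, 14 lay above and 4 below the lung libraries (45.2% and 12.9%), 7 of them at least 2-fold above. KIF15, a kinesin that keeps spindle poles apart (chromosome 3, 44761717 to 44873376, plus strand), is not a member of that list and had the largest distance above the lung libraries among genes with a mean of at least 20 CPM. It was at 146 CPM in the primary library and at 0, 6.89, 4.47 and 6.90 CPM in lung, an 18.7-fold distance to the nearest library. TTK, the spindle checkpoint kinase MPS1, was at 86.5 CPM against 26.6, 20.6, 6.29 and 28.0 CPM. CENPF, a large kinetochore protein, was at 153 CPM against 58.7, 29.9, 12.9 and 24.4 CPM. TOP2A, the topoisomerase of dividing cells, was at 327 CPM against 79.4, 97.7, 108 and 157 CPM. For all 4 the primary library stood clear of the lung range. The checkpoint and spindle genes HMMR, BUB1B and DLGAP5 were also at least 2-fold above. MKI67, whose Ki-67 protein marks cycling cells, had too low a mean for the naming rule and is given after its values were seen: 24.6 CPM against 0.331 to 8.44 CPM. On the other side, BIRC5, the survivin gene, was at 589.6 CPM in the primary library and 872, 1060.2, 960.2 and 1002 CPM in lung, and the mitotic cyclin CCNB1 was at 415 CPM against 565 to 613 CPM. The list as a whole therefore did not share 1 direction; its median was -0.17, -0.14 with the offset and -0.26 without lung replicate 4. DNA replication genes showed smaller distances: 8 of 30 lay above (26.7%) and 0 below, none by 2-fold. Their median was -0.13, and -0.28 to -0.22 in single lung libraries. CDC6, a loader of the replicative helicase, was at 91.1 CPM against at most 55.5 CPM in lung, and PCNA, the sliding clamp, was at 344 CPM within a lung range of 236 to 689 CPM. TOP2A in bone marrow was at 199 to 422 CPM.

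**Figure D3:**
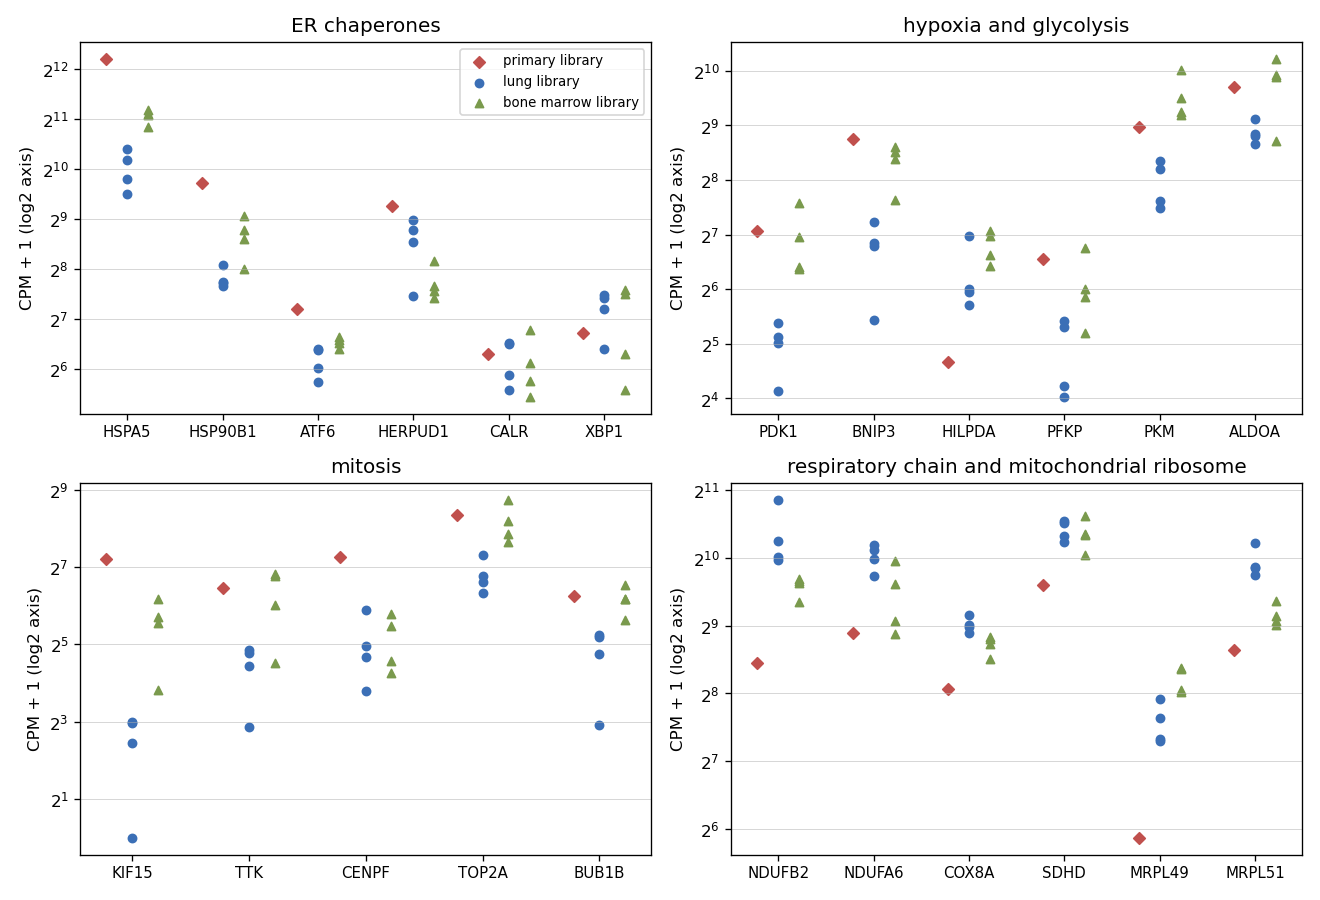
Levels in single libraries, as CPM + 1 on a log2 axis, for ER chaperone, hypoxia and glycolysis, mitosis, and mitochondrial genes; red diamonds are the primary library, blue circles the 4 lung libraries and green triangles the 4 bone marrow libraries. HSPA5 in the primary library (4659 CPM) lies above every lung library (720.4 to 1338 CPM), while NDUFB2 (349.8 CPM) lies below all of them.

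Genes of nuclear RNA handling were often higher in the primary library. Of 35 splicing factors and hnRNPs, 19 lay above and 3 below all lung libraries (54.3% and 8.57%), with a median difference of -0.34, and -0.35 with the offset. HNRNPU, a scaffold of nuclear RNA, was at 405 CPM in the primary library and 142, 187, 147 and 172 CPM in lung. SRSF5, an SR-family splicing factor, was at 186 CPM against 86.1, 69.9, 79.5 and 64.7 CPM. In both, the lung libraries lay close together and at least 2.14-fold below. HNRNPM, a regulator of alternative splicing, was at 657 CPM against 147 to 336 CPM. SF3B1, the U2 component often mutated in blood cancers, was at 491 CPM against 123 to 272 CPM. Of 28 nuclear pore genes, 11 lay above and 1 below (39.3% and 3.57%; median -0.40, and -0.39 with the offset). TPR, the filament of the nuclear basket (chromosome 1, 186311652 to 186375693, minus strand), was at 338 CPM against 52.3, 33.4, 32.4 and 66.0 CPM. RANBP2, on the cytoplasmic face of the pore, was at 114 CPM against 28.3, 35.1, 21.5 and 21.0 CPM. DESeq2 called TPR (adjusted p = 0.0043), which edgeR did not (adjusted p = 0.448). Of 19 genes of m6A methylation, the most common internal mark of mRNA, 9 lay above and 2 below (47.4% and 10.5%). Their median of -0.54 was -0.91 without lung replicate 1 and -0.35 without lung replicate 3. ZC3H13, which anchors the methyltransferase complex in the nucleus, was at 682 CPM against 213, 157, 189 and 159.6 CPM. METTL3, the catalytic subunit, was at 47.3 CPM within a lung range of 11.4 to 71.3 CPM. YTHDF2, a reader that promotes decay of marked mRNA, was lower in the primary library, at 114 CPM against 184 to 255 CPM. These 3 lists hold transcripts of 2128, 2960 and 3216 bases at the median.

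The 15 genes farthest above the lung libraries, by a rule that took genes with a mean of at least 20 CPM, lay 1.79 to 4.22 beyond the nearest lung library on the log2 scale, or 3.46-fold to 18.7-fold. They were KIF15, NOLC1, PCM1, ZNF146, TPR, PRRC2C, SRRM1, GPATCH4, RARRES2, SRGAP2B, PHACTR2, NCOR1, ZNF638, HSPA5 and HMGN5. NOLC1, a chaperone of nucleolar assembly (chromosome 10, 102152176 to 102163871, plus strand), was at 179.5 CPM in the primary library and 16.9, 1.55, 9.52 and 15.3 CPM in lung. PCM1, a scaffold of centriolar satellites, was at 109 CPM against 18.3, 12.5, 13.4 and 4.07 CPM. SRRM1, a splicing co-activator, was at 289.5 CPM against 70.2, 50.9, 28.6 and 33.7 CPM. NCOR1, a nuclear receptor co-repressor, was at 185 CPM against 34.2, 50.2, 24.3 and 15.5 CPM. In each of these the lung libraries were far below the primary value and did not overlap it. RARRES2, which encodes the secreted chemoattractant chemerin, was at 109 CPM in the primary library and varied widely among lung libraries, at 8.91, 2.11, 0.0828 and 28.9 CPM. SRGAP2B is a near-identical copy of SRGAP2, and reads may be shared between the copies. DESeq2 called 10 of the 15, beside 0.945% of all genes with an adjusted p. The 15 were chosen by their distance from the lung libraries in the same counts, so these calls are not a separate test. With the offset all 15 stayed above every lung library, by 1.42 to 3.89 on the log2 scale. In bone marrow libraries NOLC1 was at 94.8 to 105 CPM and ZNF146, a zinc finger gene, at 49.5 to 131 CPM.

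The 15 genes farthest below lay 1.98 to 3.73 under the nearest lung library, or 3.95-fold to 13.3-fold. They were FAM120AOS, PLCG2, RNU12, HIST1H2BN, NPY1R, IL10RB, C9orf64, C1orf216, BCYRN1, MIR663AHG, ZNF566, TP53INP1, NSUN5, MSRB1 and TRADD. PLCG2, a phospholipase best known downstream of immune receptors (chromosome 16, 81739097 to 81962693, plus strand), was at 8.59 CPM in the primary library and 103, 73.7, 158 and 203 CPM in lung. NPY1R, a receptor for neuropeptide Y (chromosome 4, 163323961 to 163344832, minus strand), was at 4.76 CPM against 35.8, 48.8, 42.5 and 81.2 CPM. IL10RB, a shared subunit of interleukin-10 family receptors (chromosome 21, 33266358 to 33310187, plus strand), was at 3.53 CPM against 26.1, 33.5, 44.2 and 28.5 CPM. All 4 lung libraries were at least 5.99-fold above the primary library for these 3 surface and signalling genes. DESeq2 called each of them (adjusted p of 5.69e-05, 0.0014 and 1.48e-05), where edgeR's adjusted p was 0.508, 0.534 and 0.508. Levels of PTPRC and the summed leukocyte markers varied between lung libraries, from 3.85 CPM in replicate 4 to 44.5 CPM in replicate 1, against 4.99 CPM in the primary library. The part of these cells in the values of the 3 genes was not tested. TRADD, an adaptor of the TNF receptor, was at 3.07 CPM against 20.6, 15.1, 44.7 and 21.1 CPM, and MSRB1, a selenoprotein that repairs oxidised methionine, at 7.75 CPM against 35.7 to 62.5 CPM. FAM120AOS was at 0.767 CPM against 24.4, 27.0, 22.4 and 70.6 CPM; it overlaps FAM120A on the other strand, and the 2 cannot be told apart without a known strand setting. RNU12 and BCYRN1 are small noncoding RNAs, and BCYRN1 and HIST1H2BN belong to families with near-identical copies, so their values are uncertain. DESeq2 called 10 of the 15, beside 0.945% of all genes with an adjusted p. These 15 too were chosen by their distance, so the calls are not a separate test. With the offset all 15 stayed below every lung library. In bone marrow PLCG2 was at 17.0 to 42.3 CPM, NPY1R at 36.8 to 88.9 CPM and IL10RB at most 32.3 CPM.

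**Figure D4:**
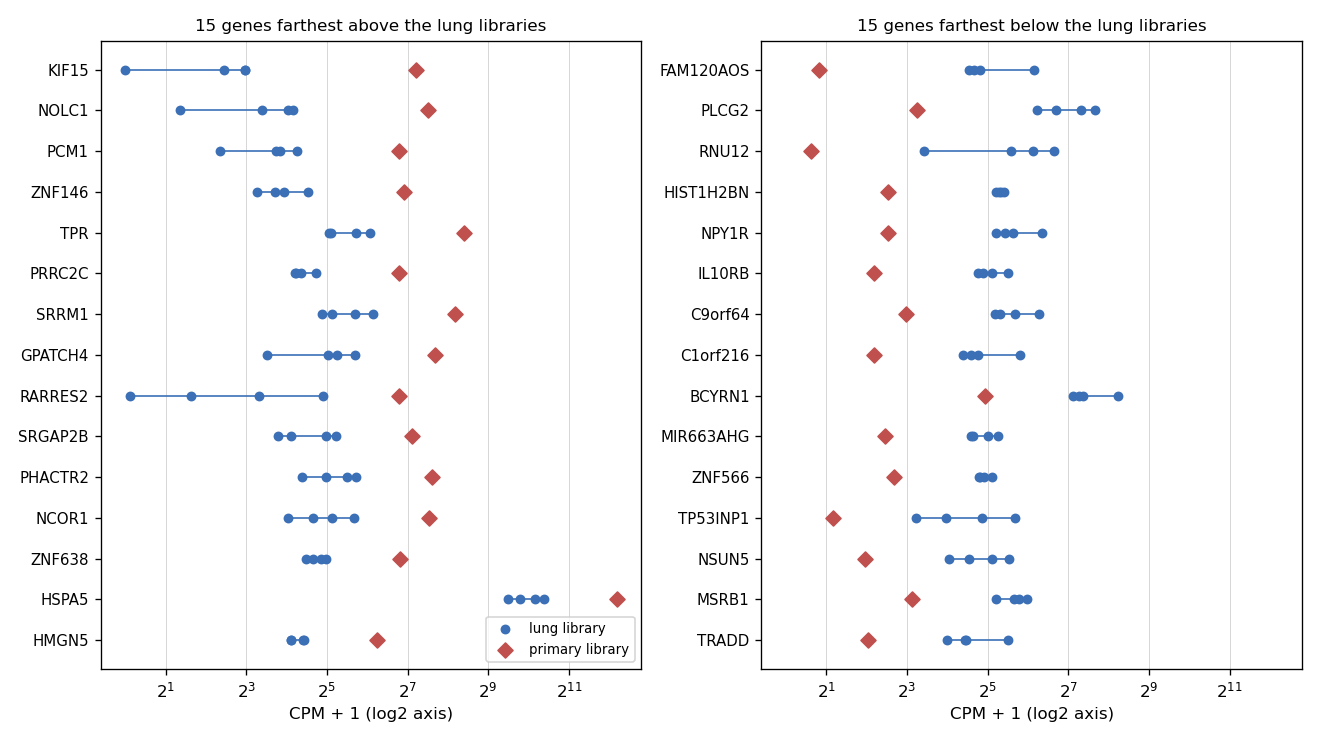
The 15 genes farthest above (left) and below (right) the lung libraries among genes with a mean of at least 20 CPM; the x axis is CPM + 1 on a log2 scale, blue circles joined by a line are the 4 lung libraries and the red diamond is the primary library. KIF15 and NOLC1 stand 18.7-fold and 10.1-fold above the nearest lung library, and FAM120AOS and PLCG2 13.3-fold and 7.78-fold below it.

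Genes of the mitochondrial respiratory chain that are encoded in the nucleus were mostly lower in the primary library. Of 51 measured, 26 lay below and 3 above all lung libraries (51% and 5.88%), with a median difference of 0.35. NDUFB2, an accessory subunit of complex I, was at 349.8 CPM in the primary library and 1222, 1034, 1846 and 997 CPM in lung, 2.85-fold or more above. COX8A, a subunit of cytochrome c oxidase, was at 268 CPM against 573, 506, 517 and 476 CPM, and SDHD, the membrane anchor of complex II, at 774 CPM against 1208 to 1491 CPM. NDUFA6, another accessory subunit of complex I, was at 474 CPM against 1013, 1112, 1172 and 850.0 CPM. None of these groups overlapped. These messages are short (median 732.75 bases), and the direction did not hold with the offset: the median became -0.05, with 17 of 42 members above and 6 below, where the shares of all genes with the offset were 25.3% and 18.3%. NDUFB2 stayed below all lung libraries with the offset (log2 difference 1.24), and COX8A came within their range (0.19). Cytosolic ribosomal proteins behaved alike, with 25 of 54 below and 2 above (46.3% and 3.7%; median 0.27; 768.25 bases), and a median of -0.21 with the offset, 21 of 54 above and 1 below, beside the same 25.3% and 18.3%. The unadjusted median was 0.10 without lung replicate 3. RPS2 and RPS27, of the small subunit, were at 588 and 1505 CPM against 888 to 1817 and 2169.7 to 3077 CPM, while RPL4, of the large subunit and longer, was at 622 CPM against 460.5, 377, 280.4 and 320.1 CPM.

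Mitochondrial ribosomal proteins were also more often below. Of 77 measured, 38 lay below and 7 above all lung libraries (49.4% and 9.09%; median 0.46), and with the offset 19 lay below and 15 above (median 0.18), beside 18.3% below, 25.3% above and a median of 0.03 for all genes with the offset. MRPL49 levels were 57.5 CPM for the primary sample and 198, 159.6, 157 and 242 CPM in lung, and MRPL51 at 398 CPM against 919.9, 932, 1189 and 863 CPM. Both proteins belong to the large subunit, and both stayed below all lung libraries with the offset (log2 differences 0.99 and 0.72). DESeq2 called MRPL49, MRPL51 and NDUFB2 (adjusted p of 0.00475, 0.0111 and 0.00633), and edgeR did not (adjusted p = 0.508 for each). Transcripts of the mitochondrial genome went both ways. Of 13, 5 lay below and 4 above (38.5% and 30.8%, beside 17.9% and 21.7% of all genes). MT-CO1 was at 662 CPM in the primary library and 1569, 1236, 1672 and 1851 CPM in lung, and MT-ND3 at 42.0 CPM against 86.4 to 177 CPM, whereas MT-ND4 was at 2687 CPM against 1721, 1218, 1187 and 1547 CPM. Together these mitochondrial messages were 1.34% of counts in the primary library and 1.30 ± 0.147% in lung (SD, n = 4). Reads of mitochondrial ribosomal RNA, from the authors' deposited library table, were 0.057% in the primary library and 0.359% to 0.491% in lung, and 0.0956% to 0.218% in bone marrow. The part of this difference between libraries in the mitochondrial results was not tested.

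Genes of matrix and adhesion were more often above than below the lung libraries. Of 27 matrix and mesenchymal genes, 12 lay above and 3 below (44.4% and 11.1%; median -0.61, and -0.58 with the offset), and of 32 integrin and adhesion genes 12 above and 6 below (37.5% and 18.8%; median -0.60, -0.40 with the offset and -0.36 without lung replicate 1). COL5A2, a chain of collagen V, was at 53.3 CPM in the primary library and 14.8, 24.6, 9.35 and 4.72 CPM in lung. EZR, which encodes ezrin, the linker of membrane and actin, was at 465 CPM against 231, 211, 195 and 121 CPM. ITGB1, the common beta 1 integrin, was at 303 CPM against 135, 130.4, 192 and 131 CPM. VCL, which encodes vinculin of focal adhesions, was at 60.0 CPM against 0.993 to 33.2 CPM. LUM, the proteoglycan lumican, and CTNNB1, which encodes beta-catenin, were lower in the primary library, at 63.5 CPM against 87.7 to 128 CPM and at 155 CPM against 214 to 263 CPM. The 11 fibroblast and pericyte markers summed to 358 CPM in the primary library and 238 to 461 CPM in lung. Of these markers 4 lay above and 2 below (36.4% and 18.2%, beside 21.7% and 17.9% of all genes). Their median was -0.52, -0.74 to -0.41 in single lung libraries, -0.26 without lung replicate 2 and -0.45 with the offset. This was the same direction as the matrix genes. The part of these markers in the matrix result was not tested. Genes repressed by the EWSR1-FLI1 fusion lay above for 10 of 23 and below for 2 (43.5% and 8.7%), but their median of -0.37 was -0.06 with the offset, -0.20 without lung replicate 3 and -0.56 without lung replicate 4. Genes activated by it lay above for 8 and below for 8 of 39 (20.5% each), near the shares of all genes. Among these, JAK1, a cytokine receptor kinase, was at 393 CPM against 144, 174, 57.9 and 151 CPM, and CCND1, which encodes cyclin D1, at 313 CPM against 127.5 to 216.3 CPM.

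Signalling and immune genes lay on both sides. Of 25 early response transcription factors, 7 lay above and 5 below (28% and 20%). On the side above, ZFP36L1, which promotes decay of short-lived mRNA, was at 102 CPM in the primary library and 21.9 to 76.3 CPM in lung. MYC, the growth-promoting transcription factor, was at 458 CPM against 239, 329, 444 and 117 CPM, close to lung replicate 3. On the side below, DUSP1, a phosphatase of MAP kinases induced by stress, was at 22.5 CPM in the primary library and 73.3, 74.5, 83.1 and 62.4 CPM in lung. FOS, a subunit of the AP-1 factor, was at 110 CPM against 323, 148, 142 and 116 CPM, with 3 lung libraries near the primary value. JUNB, its JUN-family partner, was at 9.97 CPM against 20.7 to 42.7 CPM. ATF3, a stress-induced transcription factor, was at 43.6 CPM against 59.3 to 134 CPM. Of 10 feedback inhibitors of growth factor signalling, 2 lay above and 3 below (20% and 30%), with a median of 0.31, and 0.10 without lung replicate 1. ERRFI1, which restrains EGF receptor signalling, lay above, at 594 CPM against 158, 319, 86.1 and 121 CPM, as did the ERK phosphatase DUSP6, at 155 CPM against 28.6 to 129 CPM. SPRY2, a Sprouty inhibitor of the same pathway, lay below, at 2.84 CPM against 7.05 to 30.5 CPM, and is given after its values were seen. CTGF, a target of YAP, was at 10.4 CPM against 17.2 to 34.6 CPM. Of 27 interferon-stimulated genes, 5 lay above and 3 below (18.5% and 11.1%), below the shares of all genes. Their median was -0.04, and 0.15 with the offset. EIF2AK2 lay above, at 127 CPM against 79.1, 38.3, 6.95 and 17.8 CPM, as did IFITM3, at 368 CPM against 248 to 345 CPM. ISG15, a ubiquitin-like modifier, lay below, at 99.3 CPM against 152, 304, 160.1 and 197 CPM, and came within the lung range with the offset. IRF1, an interferon-induced transcription factor, was at 6.14 CPM against 10.8 to 58.1 CPM. MHC class I presentation had 2 of 14 above and 4 below (14.3% and 28.6%, beside 21.7% and 17.9% of all genes). Its median of 0.68 became 0.14 without lung replicate 4 and 0.23 with the offset. HLA-B, whose reads may be shared with other class I genes, was at 4.30 CPM against 12.6, 22.9, 56.9 and 23.8 CPM. MCL1, an anti-apoptotic member of the BCL2 family, was at 239 CPM against 414, 538, 259 and 316 CPM, with lung replicate 3 close to the primary library.

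Metabolic genes outside glycolysis fell on both sides. Among polyamine genes 5 of 25 lay above and 6 below (20% and 24%), close to the shares of all genes. ODC1, which makes putrescine from ornithine, was at 147 CPM in the primary library and 238, 215, 401 and 261 CPM in lung. AMD1, which supplies the aminopropyl donor for spermidine and spermine, lay on the opposite side, at 207 CPM against 97.2, 46.5, 132 and 34.6 CPM. The synthases SRM and SMS were within the lung range, at 21.0 and 197 CPM against 8.03 to 31.5 and 163 to 266 CPM. OAZ2, an antizyme that targets ODC1 for degradation, was at 9.97 CPM against 64.9, 23.4, 35.2 and 49.8 CPM, and ARG2, the mitochondrial arginase, at 12.9 CPM against 27.5 to 47.6 CPM. In the ferroptosis, glutathione and iron list 8 of 38 lay above and 7 below (21.1% and 18.4%). GPX4, which detoxifies lipid peroxides, was at 148 CPM against 233, 185, 196 and 206 CPM, and its difference of 0.47 became -0.20 with the offset. SLC7A11, the cystine importer, overlapped at 19.1 CPM against 15.9 to 52.0 CPM. TFRC, which encodes the transferrin receptor, was at 389 CPM against 110.4, 76.5, 249 and 205 CPM in lung and 436 to 864 CPM in bone marrow, and the ferritin light chain FTL at 1475 CPM against 2424 to 3437 CPM. ISCU, the scaffold of iron-sulfur cluster assembly, was at 254 CPM against 563, 465, 495 and 512 CPM, a tight group of lung libraries 1.83-fold or more above. Cholesterol synthesis had 5 of 29 above and 6 below (17.2% and 20.7%), near the shares of all genes. Its median was -0.02, and 0.05 with the offset. On the side above, HMGCS1, an early enzyme of the pathway, was at 639 CPM against 209, 215, 359 and 262 CPM. The desaturase FADS1 was at 624 CPM against 288 to 345 CPM, and MSMO1, a later sterol enzyme, at 446 CPM against 170 to 310 CPM. On the side below, SC5D was at 40.1 CPM against 58.1 to 91.3 CPM, and PMVK at 35.2 CPM against 44.7 to 156 CPM. PMVK came within the lung range with the offset. In protein glycosylation 12 of 37 lay above and 9 below (32.4% and 24.3%, beside 21.7% and 17.9% of all genes). The median was 0.11, and -0.04 with the offset. With the offset PGM3 and STT3A lay above all lung libraries (log2 differences -1.86 and -0.42). On the side below, ALG8, a glucosyltransferase of the ER, was at 93.4 CPM against 217, 258, 207 and 215 CPM. MAN1A2, a Golgi mannosidase, was at 22.7 CPM against 56.2, 74.3, 70.8 and 95.9 CPM. DAD1, a subunit of oligosaccharyltransferase, was at 604 CPM against 1212, 1269, 1592 and 1311 CPM. Of 31 proteasome subunits 7 lay above and 10 below (22.6% and 32.3%, beside 21.7% and 17.9% of all genes). The catalytic subunit PSMB5 was at 1057 CPM against 1858 to 2214 CPM.

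**Figure D5:**
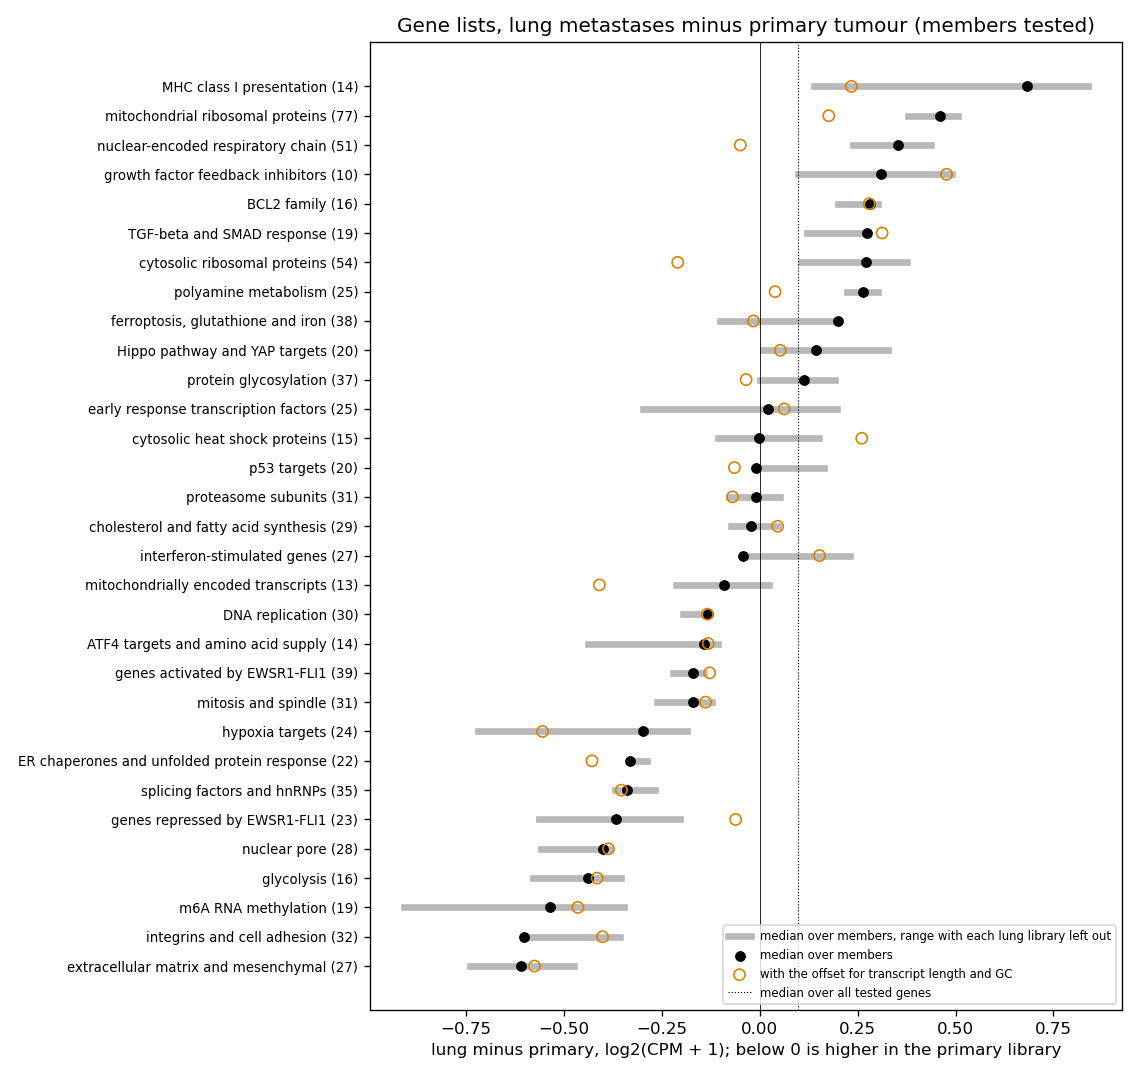
Median over the measured members of each list (member number in brackets) of lung minus primary on the log2(CPM + 1) scale; black points are all 4 lung libraries, grey bars the range with each lung library left out in turn and orange circles the value after the length and GC offset. The ER chaperone median lies at -0.33 and at -0.43 with the offset, and the respiratory chain median at 0.35 and at -0.05 with the offset.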

How the data were processed

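Per the labels' protocols, cDNA of the sorted tumour cells was made by template switching with a kit for small RNA inputs. The authors deposited estimated counts per gene symbol, made with Trim Galore, Salmon and the build hg38, per the submitters' processing notes. Versions and the strand setting are not given in the sources used here. Their library table, as deposited, gives the percent of reads assigned to human and mouse and, as a fraction, the reads that fell in each class of the counting, per the file headers; such fractions are printed as percent. No column of per-sample values was left unmapped.

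Counts were rounded, rows of vector genes left out, genes with low counts removed with filterByExpr and libraries scaled by TMM, which left 17073 genes. Library depth limits precision most for genes under 5 CPM. edgeR 4.0.16 (quasi-likelihood test, all 9 libraries in 3 groups, Benjamini-Hochberg adjustment) in R 4.3.3 was tested on simulated data. DESeq2 1.42.0, which gave an adjusted p for 13868 genes, and limma 3.58.1 were alternatives, as were other filters, scalings, pseudocounts, folds and leaving out each lung library. The offset (mgcv 1.9.3) used transcript length and GC content of GENCODE release 29, known for 85% of tested genes, and was chosen after seeing the data. Samples were grouped by their titles.

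Among genes with a mean of at least 20 CPM, the text names the 15 farthest above and the 15 farthest below the lung libraries, up to 6 members of a list with the largest distance, up to 3 members within the lung range, and ODC1, AMD1, SRM, SMS, GPX4, SLC7A11 and TFRC. Library checks, the genes at the edge of the 2-fold limit, TEKT2, PDE8A, LRRC70 and MKI67, and lower-expressed or nearer list members fall outside that rule and were chosen after their values were seen. Members and lists were chosen with earlier results of these data known.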

Additional observations from a re-analysis of the deposited data

Results flagged for a closer look

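In the lung group 11 of 130 genes examined had 1 library far from the other 3, by Dixon's ratio of the gap to the whole range. For normally distributed values chance gives this in about 1 of 20 groups. The ratio was taken on unlogged CPM of genes partly chosen by their values, so that rate cannot be applied to the 11. All 11 stood out as the highest value, and 6 were in lung replicate 3. HSP90B1 (ratio 0.856) was at 267 CPM in replicate 4 and 201 to 211 CPM in the others, all below the primary library. HILPDA (0.831) was at 124 CPM in replicate 3 against 51.3 to 63.6 CPM, and ITGB1 (0.9265) at 192 CPM there against 130.4 to 135 CPM. C1orf216 (0.8293) and BCYRN1 (0.84) were also highest in replicate 3, at 54.6 and 299 CPM, as were CCNB1 (0.903) at 613 CPM and LIPI (0.8376) at 216.4 CPM. FOS (0.844) was at 323 CPM in replicate 1 against 116 to 148 CPM, and FAM120AOS (0.905) at 70.6 CPM in replicate 4 against 22.4 to 27.0 CPM. The blood genes HBA1 (0.859), at 130.4 CPM in replicate 2, and PTPRC (0.861), at 14.3 CPM in replicate 1, stood out in the libraries named above. The share of mouse reads (0.835) was 8.09% in replicate 3.

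For 6 of the same genes every lung library lay on one side of the primary library and every bone marrow library on the other. Values are lung minus bone marrow on the log2 scale, with edgeR's adjusted p for that contrast. Lung was lower for BNIP3L (-1.084, adjusted p = 0.331), PKM (-1.569, adjusted p = 0.241) and TFRC (-1.87, adjusted p = 0.303). Lung was higher for ATF3 (1.777, adjusted p = 0.356), MIR663AHG (3.031, adjusted p = 0.165) and MCL1 (2.286, adjusted p = 0.165). None passed, so a difference between the organs was not shown for these genes. Both positions were read against the same primary library.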

How the results depend on the processing

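No paired analysis was possible because the primary library carries no replicate number, so the groups compared share fewer than 2 numbers. With no filter on low counts the primary library lay above all lung libraries for 5593 genes. With a filter of 5 CPM in 4 libraries it lay above for 1905, below for 1988 and at least 2-fold above for 299, since fewer genes were tested. A pseudocount of 5 CPM gave 356 genes at least 2-fold above and 138 below, and a 4-fold limit 207 and 34. With the offset 205 genes were at least 2-fold below, against 268 of the same genes without it. With each lung library left out in turn, counts were 4482 to 4594 above, 3746 to 3850 below, 1110 to 1326 at least 2-fold above and 445 to 474 at least 2-fold below; a range over fewer libraries is easier to fall outside. edgeR called 0 genes in each alternative, with a smallest adjusted p of 0.117 to 0.723, whereas DESeq2 called 131 and limma voom 4; the cause was not tested. Of the single gene differences, 3 reversed, all with the offset: RPL35 (-0.081), CDH11 (0.18) and GPX4 (-0.20). Of the other values for single genes 61 moved by more than the spread between lung libraries and 1865 did not, and of list medians 24 moved and 288 did not. Depth limits genes under 5 CPM, which gave 598 of the 893 genes at least 2-fold above.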
